A study of Mus musculus with 66 samples.

Results

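Annexins are a family of soluble proteins that bind acidic phospholipids of the plasma membrane and of endosomes when calcium rises. Each carries a conserved calcium- and lipid-binding core behind an N-terminal tail that is particular to the member and that recruits partners such as S100 proteins. They are known for membrane repair, for the traffic and fusion of vesicles and for linking membranes to the actin cortex, and in the intestinal epithelium several members line the apical or lateral membrane of enterocytes. The members described here, taken by gene symbol from the expression table, were Anxa1, Anxa2, Anxa3, Anxa4, Anxa5, Anxa6, Anxa7, Anxa11 and Anxa13. These 9 genes were represented by 10 transcripts (Anxa6 had 2) of 9481 transcripts and 8978 gene symbols in all. All 10 transcripts passed the filter on low counts. Anxa10 was listed too but is outside this set, and the annexin counts, medians and sums below leave it out.

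The study grew mouse small intestinal organoids, epithelial cultures derived from crypts, from Lgr5-GFP-DTR heterozygous tissue in which a green reporter sits at the Lgr5 locus of stem cells. All organoids were kept in ENR, a medium with EGF at 50 ng/mL, Noggin and R-Spondin-1, and 3 cultures were compared. CV was ENR with 3 µM CHIR99021, a GSK3 inhibitor that raises Wnt signalling, and 1 mM valproic acid, a histone deacetylase inhibitor, and is labelled stem cell enriched. EN was ENR without the Wnt enhancer R-Spondin-1 and is labelled differentiated. By the study's methods CV was grown in its medium for longer than EN, so time and medium differ together between them. RNA and accessible DNA (ATAC-seq) were measured in 4 libraries per culture, and the histone marks H3K27ac, H3K4me3 and H3K27me3 in 3 libraries per culture and mark. Binding of the nuclear receptor Hnf4g was measured in 1 library per culture. The study's methods name this 1 genotype for the 3 cultures, and the labels do not say whether libraries of a culture were separate cultures, so p-values measure the spread between these libraries, which may be technical.

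RNA libraries held 5630977 to 8859757 counts. The labels were set against marker lists by their summed counts-per-million (CPM, scaled between libraries). Stem cell markers summed to 634 to 684 CPM in CV, 1766 to 1918 in ENR and 42.0 to 49.5 in EN, and all 7 measured were lower in EN than in CV. Olfm4, one of these 7, accounted for a mean of 1229 CPM in ENR and 10.9 CPM in CV. In CV, 4 of these 7 were lower than in ENR and 2 were higher. Enterocyte markers summed to 7577 to 7979, 8578 to 9692 and 54679 to 56745 CPM, with 10 of 10 higher in EN than in CV. Goblet (5 of 5), enteroendocrine (5 of 5) and tuft (5 of 5) markers were also higher in EN than in CV, and of 6 Paneth markers 2 were higher and 4 lower. Mesenchyme markers (4 of 8 tested) summed to at most 26.3 CPM and immune markers (3 of 5 tested) to at most 3.89 CPM in any library. None of 3 endothelium markers was in the table. The table was limited to transcripts whose proteins had been quantified, so a missing marker does not show that a cell type was absent. The part of these shifts in cell type in the annexin values was not tested. In such bulk samples, fewer cells of a type and less RNA per cell cannot be told apart.

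The annexin genes lie on 8 chromosomes of the mm9 build. With each open or marked region given to its nearest protein-coding start within 50 kb, 71 regions belonged to the 9 genes. Windows of 200 bases around the midpoint of 6 of these regions are shown, because the chromatin results below turn on them, each on the plus strand of mm9. For Anxa1, Anxa2, Anxa5, Anxa6 and Anxa11 the window lies in the region with the lowest p for accessibility, and for Anxa13 in the region nearest its start, since no region lay within 500 bp of that start. Capitals mark CAAAG on either strand, the core shared by the motifs of Hnf4 and TCF factors, and TGACTCA on either strand, the letters bound by AP-1.
Anxa1 chr19:20468195-20468394: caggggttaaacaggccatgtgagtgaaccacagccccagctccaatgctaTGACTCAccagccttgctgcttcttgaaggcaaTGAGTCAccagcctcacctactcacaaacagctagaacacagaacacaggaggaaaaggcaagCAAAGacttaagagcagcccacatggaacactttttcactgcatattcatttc
Anxa2 chr9:69315376-69315575: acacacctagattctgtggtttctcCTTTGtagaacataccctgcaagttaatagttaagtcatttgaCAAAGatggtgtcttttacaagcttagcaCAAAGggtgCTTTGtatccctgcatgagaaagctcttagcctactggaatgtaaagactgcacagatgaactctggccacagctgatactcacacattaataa
Anxa5 chr3:36366638-36366837: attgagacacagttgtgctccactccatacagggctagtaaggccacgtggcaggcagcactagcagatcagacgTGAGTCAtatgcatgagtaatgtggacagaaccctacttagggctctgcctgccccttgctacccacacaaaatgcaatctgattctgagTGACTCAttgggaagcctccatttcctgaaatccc
Anxa6 chr11:54836625-54836824: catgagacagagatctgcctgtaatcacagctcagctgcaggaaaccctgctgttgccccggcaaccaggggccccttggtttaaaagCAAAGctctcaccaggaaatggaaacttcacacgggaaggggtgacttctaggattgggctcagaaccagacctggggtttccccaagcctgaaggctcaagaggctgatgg
Anxa11 chr14:26645856-26646055: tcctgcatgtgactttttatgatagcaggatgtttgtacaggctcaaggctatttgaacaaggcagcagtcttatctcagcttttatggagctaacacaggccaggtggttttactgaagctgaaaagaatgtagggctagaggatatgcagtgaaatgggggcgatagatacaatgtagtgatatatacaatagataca
Anxa13 chr15:58198916-58199115: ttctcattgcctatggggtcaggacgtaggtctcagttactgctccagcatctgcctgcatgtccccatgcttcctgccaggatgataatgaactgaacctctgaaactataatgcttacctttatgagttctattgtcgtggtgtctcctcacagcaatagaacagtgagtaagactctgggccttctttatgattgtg
The windows of Anxa1 and Anxa11 are upstream of their genes, at -2860 bp and -15714 bp from start to midpoint, and that of Anxa13 is at -1333 bp. The windows of Anxa2, Anxa5 and Anxa6 are in introns. Anxa5 and Anxa1 each held 2 AP-1 matches, the Anxa2 window held 4 CAAAG matches, and the Anxa11 and Anxa13 windows held neither motif.

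Most annexins differed between cultures, in opposite directions. Between EN and CV, 9 of 10 annexin transcripts passed an adjusted p of 0.01 (edgeR quasi-likelihood test with Benjamini-Hochberg adjustment over 9288 transcripts), 2 higher and 7 lower in EN. So did 76.4% of all transcripts tested (35.2% higher, 41.2% lower), so the number of annexins called is read against a table in which most transcripts passed. The median annexin log2 fold change was -1.34, against -0.08 for all transcripts. With the Anxa6 transcripts summed it was -0.76, and among the 6 transcripts with a mean count at or above the median of the table it was -0.37, so the annexin median depends on how members are counted. Between CV and ENR, 9 annexin transcripts were higher in CV and 1 was lower (background 60%, with 30.2% higher and 29.8% lower), with a median of 0.74 against -0.01. Between EN and ENR, 3 were higher, 3 were lower and 4 were not called (background 72.7%, with 35.5% higher and 37.2% lower), with a median of 0.19 against -0.01. The 3 comparisons share libraries and are not independent of one another. The CPM ranges of 2 cultures did not overlap for 76.5% of all transcripts between EN and CV. This share was 74.2% between EN and ENR and 65.7% between CV and ENR. Ranges without overlap, given for single annexins below, were therefore common among all transcripts.

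**Figure D1:**
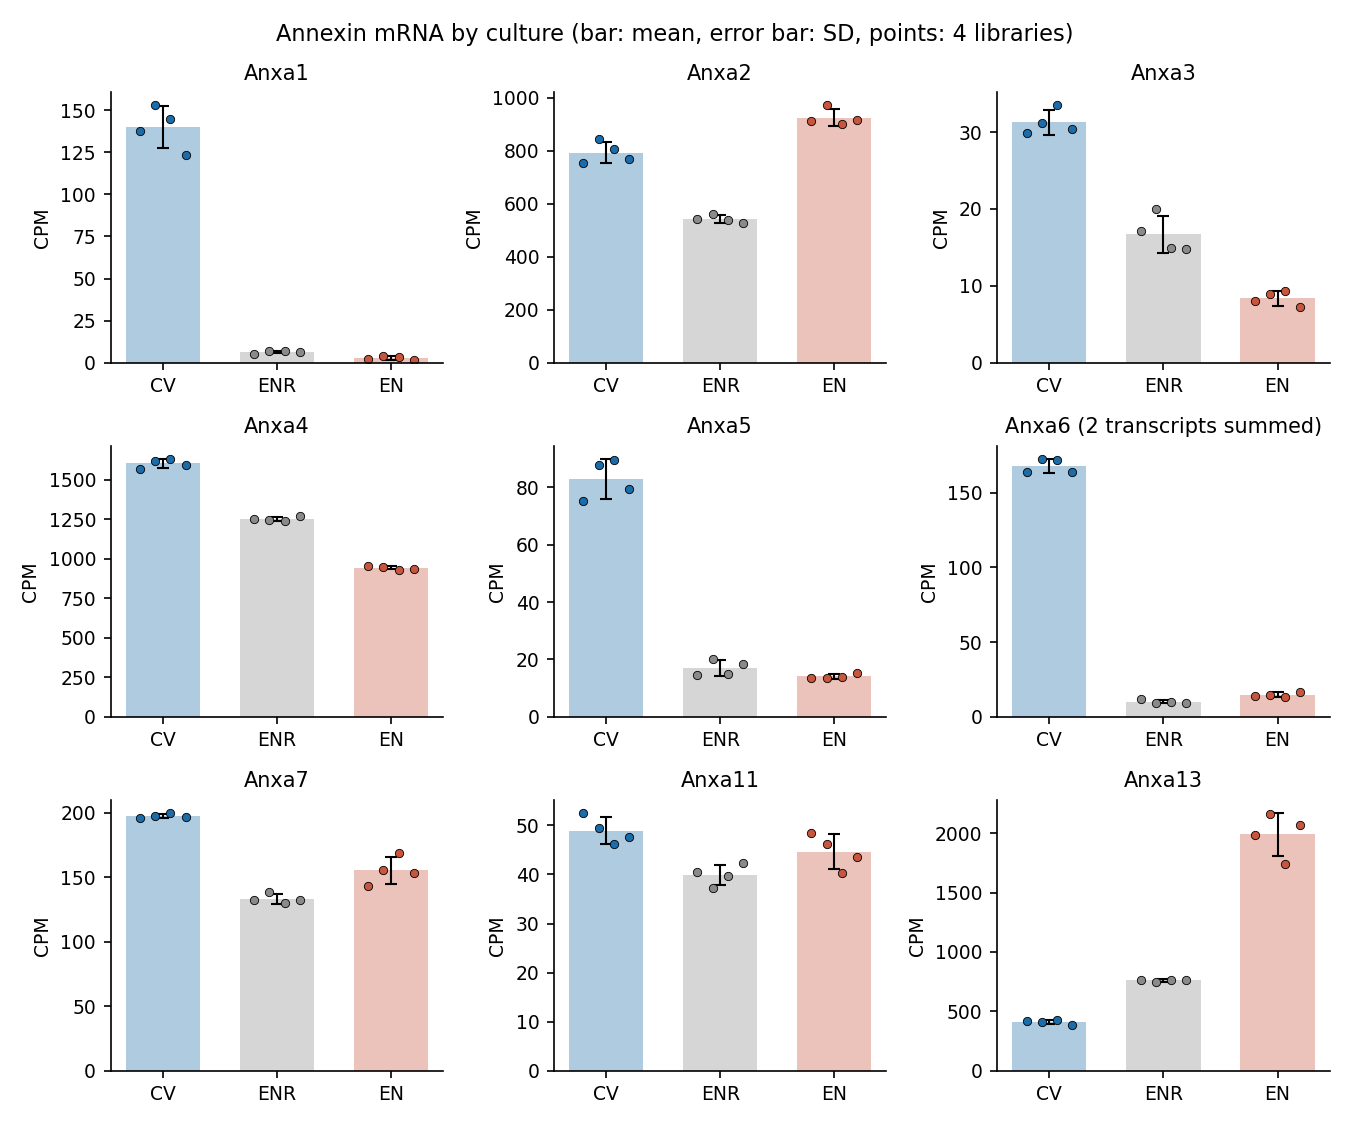
Level of each annexin in counts-per-million (CPM, linear axis from 0) in the 4 libraries of CV, ENR and EN; bars are means, error bars SD and points libraries, with the 2 transcripts of Anxa6 summed. Anxa1, Anxa5 and Anxa6 stand high in CV alone, Anxa13 climbs from 407 CPM in CV to 1991 CPM in EN, and Anxa11 stays between 37.3 and 52.6 CPM.

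Anxa1, Anxa5 and Anxa6 had the largest folds between CV and the other cultures. Anxa1, a glucocorticoid-induced protein whose tail peptide acts on formyl peptide receptors, lies at chr19:20447918-20465434 on the minus strand. Its level was 138, 153, 145 and 123 CPM in CV, 5.38, 7.04, 6.83 and 6.42 in ENR, and 2.01, 3.85, 3.39 and 1.87 CPM in EN. No library of one culture reached the range of another, and the EN values rest on 13 to 19 counts per library. Anxa1 was 52.6-fold lower in EN than in CV (log2 -5.72, SE 0.136, edgeR adjusted p = 5.3e-15) and 21.9-fold higher in CV than in ENR (log2 4.45, SE 0.114, edgeR adjusted p = 1.17e-13). Between EN and ENR it was also lower, by log2 -1.26 (SE 0.213, edgeR adjusted p = 5.79e-05), a call lost in mRNA copies (log2 -0.24, limma adjusted p = 0.435).

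Anxa6, which carries a duplicated annexin core and acts on late endosomes and cholesterol transport, lies at chr11:54792610-54846947 on the minus strand. Reads were divided between its transcripts unevenly: NM_001110211.1 had 0.000001, 38.6, 74.8 and 0.000002 estimated counts in the EN libraries, while NM_013472.4 had 105, 30.4, 0.21 and 117. Each transcript alone is therefore uncertain, and the sum over both is given. The summed level was 164, 172, 172 and 164 CPM in CV, 11.5, 9.49, 9.57 and 9.19 in ENR and 14.1, 14.8, 13.4 and 16.8 CPM in EN. CV stood apart from both other cultures, while ENR and EN differed by a few CPM without overlap. In counts summed per gene, Anxa6 was 11.3-fold lower in EN than in CV (log2 -3.50, SE 0.069, edgeR adjusted p = 2.37e-29; 80.6% of 8822 genes passed in this fit) and 16.8-fold higher in CV than in ENR (background 66.1%). The summed level was slightly higher in EN than in ENR (log2 0.57, SE 0.110, edgeR adjusted p = 2.38e-05; background 77.1%), a call that neither transcript reached alone and that was lost when libraries were scaled to spike-in RNA (log2 0.07, adjusted p = 0.786).

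Anxa5, the phosphatidylserine-binding annexin that is used as a probe for dying cells, lies at chr3:36347847-36374765 on the minus strand. It was measured at 75.1, 88.0, 89.6 and 79.3 CPM in CV, at 14.5, 20.1, 14.7 and 18.2 in ENR, and at 13.5, 13.5, 13.7 and 15.4 CPM in EN. The CV libraries were all higher, and the ENR and EN libraries overlapped. Anxa5 was 5.89-fold lower in EN than in CV (log2 -2.56, SE 0.0999, edgeR adjusted p = 1.77e-12) and 4.92-fold higher in CV than in ENR. The difference between EN and ENR did not pass (log2 -0.26, SE 0.117, edgeR adjusted p = 0.0559). It passed in the same direction with spike-in scaling (log2 -0.78, adjusted p = 7.75e-04) and in TPM (log2 -0.39, limma adjusted p = 0.00336), and passed with the opposite sign in mRNA copies (log2 0.83, limma adjusted p = 0.0038).

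Anxa3, which inhibits phospholipase A2 in vitro, lies at chr5:97222404-97274987 on the plus strand and fell stepwise from CV over ENR to EN. Its values were 29.9, 31.2, 33.5 and 30.4 CPM in CV, 17.2, 20.0, 14.9 and 14.8 in ENR and 8.04, 8.99, 9.28 and 7.20 CPM in EN. The 3 ranges did not overlap. Between CV and EN the level fell 3.76-fold (log2 -1.91, SE 0.113, edgeR adjusted p = 2.81e-10). The step from ENR to EN was log2 -1.002 (edgeR adjusted p = 1.37e-06) but log2 0.02 in mRNA copies, where all transcripts together had a median of 1.02.

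Anxa13 was the one gene of the 9 with the opposite order. It is the annexin most restricted to gut epithelium, is anchored to membranes also by a fatty acid, and is known for apical transport. The gene lies at chr15:58173429-58197682 on the minus strand. Anxa13 reached 417, 407, 423 and 382 CPM in CV, 768, 744, 766 and 767 in ENR and 1982, 2164, 1744 and 2074 CPM in EN. Every EN library exceeded every ENR library, and every ENR library exceeded every CV library. The EN level was 4.89-fold that of CV (log2 2.29, SE 0.057, edgeR adjusted p = 9.43e-15) and log2 1.39 above ENR (SE 0.055, edgeR adjusted p = 2.66e-12). Between CV and ENR it was lower in CV, by log2 -0.90 (SE 0.056, edgeR adjusted p = 1.84e-09).

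Anxa2 and Anxa4 were abundant in every culture and changed less. Anxa2, which pairs with S100a10 under the plasma membrane and links it to actin, lies at chr9:69301427-69339602 on the plus strand. It was measured at 755, 843, 806 and 768 CPM in CV, 542, 561, 540 and 526 in ENR and 912, 973, 900 and 916 CPM in EN. ENR was the lowest culture and the EN libraries lay above those of CV. The rise from CV to EN was 1.17-fold (log2 0.22, SE 0.040, edgeR adjusted p = 9.78e-05), and it turned to log2 -0.20 when scaled to spike-ins and to log2 -0.10 in TPM. Against ENR, Anxa2 was higher both in CV (log2 0.55) and in EN (log2 0.77, edgeR adjusted p = 7.22e-11). Under spike-in scaling both calls were lost, with CV versus ENR at log2 0.45 (adjusted p = 0.0255) and EN versus ENR at log2 0.25 (adjusted p = 0.18).

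Anxa4, an epithelial annexin that aggregates on membranes and limits their permeability, lies at chr6:86686834-86743578 on the minus strand. It had 1568, 1620, 1633 and 1594 CPM in CV, 1251, 1248, 1241 and 1269 in ENR and 957, 948, 932 and 938 CPM in EN. The replicates were tight, and the 3 cultures formed separate steps. EN was 1.70-fold lower than CV (log2 -0.77, SE 0.027, edgeR adjusted p = 6.06e-13) but stood at log2 0.07 in mRNA copies. The step from ENR to EN was log2 -0.41 in counts and log2 0.42 in copies.

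Anxa7 and Anxa11 are the members with long, flexible tails. Anxa7, named synexin for its part in the fusion of secretory granules, lies at chr14:21274483-21299355 on the minus strand. It had 196, 198, 200 and 197 CPM in CV, 132, 139, 130 and 132 in ENR and 143, 155, 169 and 154 CPM in EN. CV was highest and ENR lowest, with no overlap. Anxa7 was 1.27-fold lower in EN than in CV (log2 -0.35, SE 0.044, edgeR adjusted p = 2.61e-06), with the opposite sign in copies (log2 0.47). The small rise from ENR to EN (log2 0.22, edgeR adjusted p = 4.22e-04) turned to log2 -0.31 under spike-in scaling.

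Anxa11, which tethers RNA granules to lysosomes and binds Pdcd6 and S100a6, lies at chr14:26661669-26706290 on the plus strand. Its values were 52.6, 49.4, 46.3 and 47.6 CPM in CV, 40.6, 37.3, 39.6 and 42.3 in ENR and 48.5, 46.2, 40.3 and 43.5 CPM in EN. EN overlapped both other cultures. It was the one gene of the 9 not called between EN and CV (log2 -0.13, 95% interval -0.26 to 0.00, edgeR adjusted p = 0.0814), although in TPM the same difference was log2 -0.44 and passed (limma adjusted p = 5.2e-05). Against ENR it was higher in CV (log2 0.29, edgeR adjusted p = 0.00117), a call lost under spike-in scaling (adjusted p = 0.406).

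**Figure D2:**
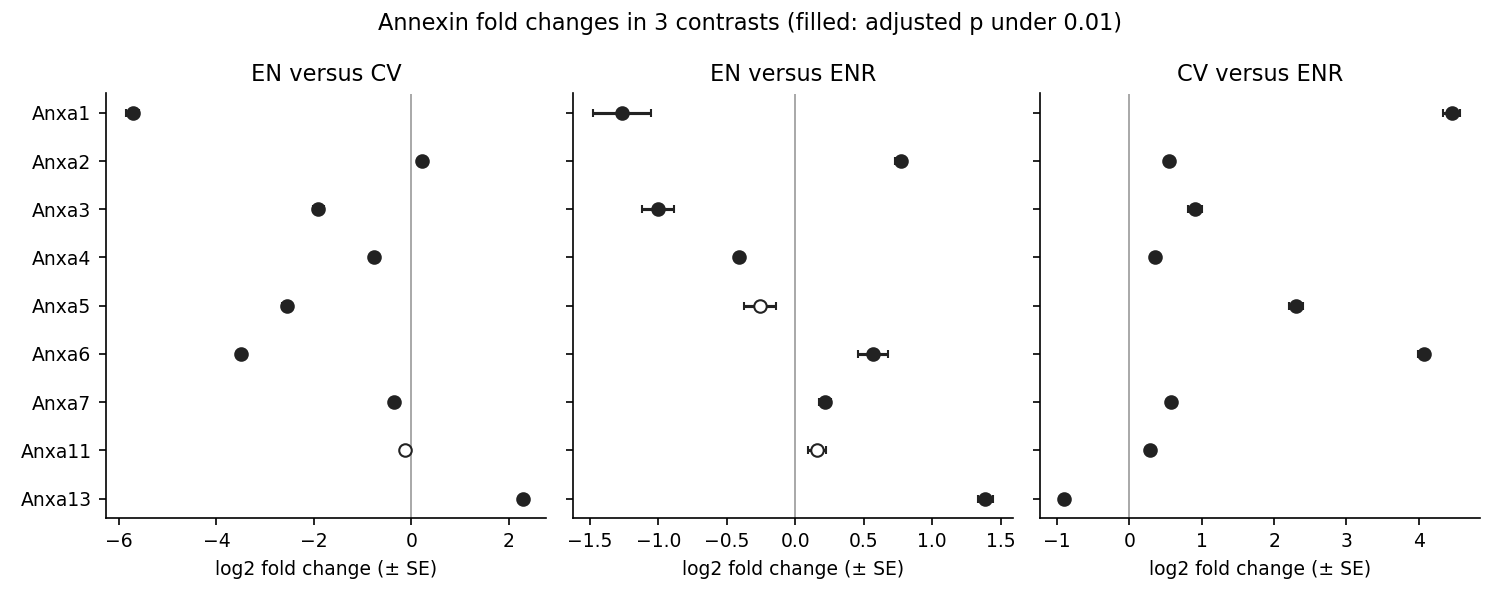
Log2 fold change with SE of each annexin for EN versus CV, EN versus ENR and CV versus ENR from counts with TMM scaling; filled points passed an adjusted p of 0.01, and Anxa6 is the sum of its transcripts. Anxa1, Anxa6 and Anxa5 are the farthest below 0 for EN versus CV and Anxa13 the farthest above. The signs of Anxa2, Anxa4, Anxa7 and Anxa11 for EN versus CV depend on the scaling.

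How the libraries were scaled set the sign of the smaller changes. For EN versus CV, the median of all transcripts was -0.08 on the log2 scale with TMM scaling of counts, -0.49 with spike-in scaling, -0.34 in TPM with a pseudocount of 1 and 0.69 in mRNA copies, and for EN versus ENR these medians were -0.01, -0.52, -0.14 and 1.02. Anxa1, Anxa3, Anxa5 and Anxa6 were below 0 and Anxa13 above 0 for EN versus CV under each of these 4 scales, so that Anxa1 ranked lowest (log2 -5.39 in copies) and Anxa13 highest (log2 3.40 in copies). With spike-in scaling, 1 annexin transcript was higher and 8 were lower in EN than in CV (62.1% of all transcripts were called). In copies 2 were higher and 5 lower (60% of all transcripts were called). The signs of Anxa2, Anxa4, Anxa7 and Anxa11 for EN versus CV were not the same under all 4 scales.

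**Figure D3:**
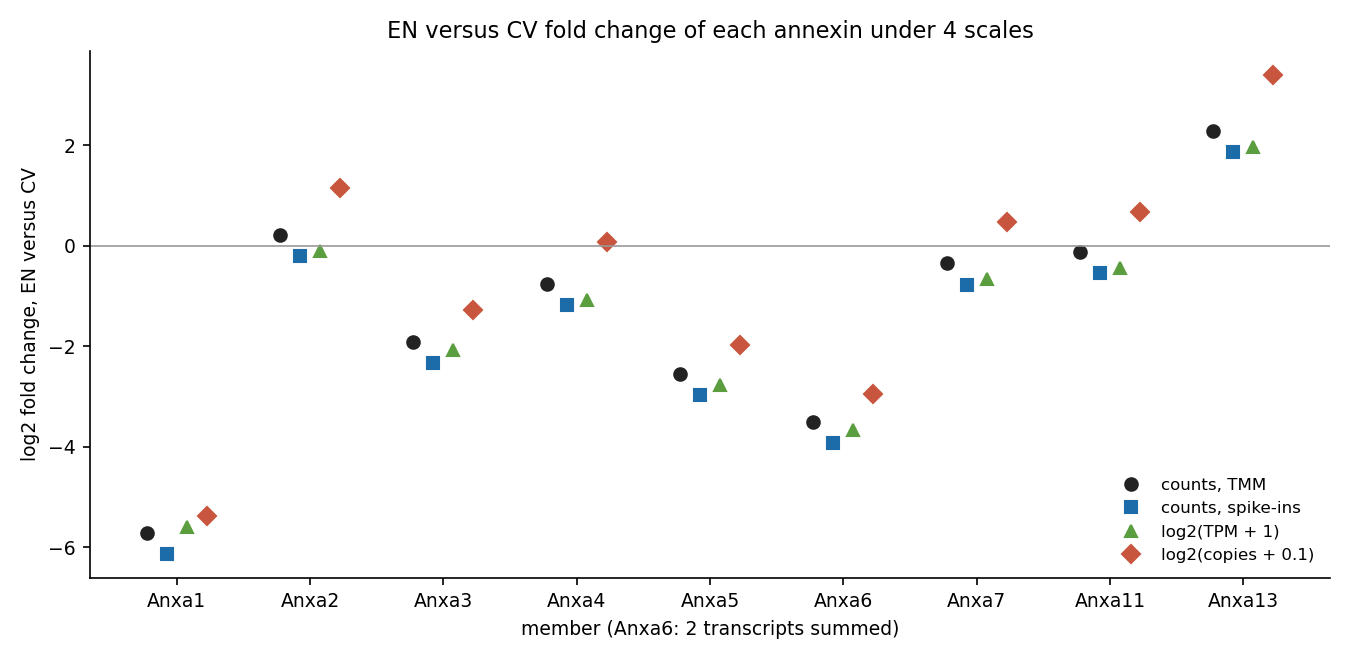
Log2 fold change of each annexin for EN versus CV under 4 scales (counts with TMM, counts scaled to spike-ins, log2(TPM + 1) and log2(copies + 0.1)); Anxa6 is summed over its transcripts. The 4 symbols lie on one side of the 0 line for Anxa1, Anxa3, Anxa5, Anxa6 and Anxa13 and on both sides for Anxa2, Anxa4, Anxa7 and Anxa11.

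To compare levels between genes, transcripts-per-million (TPM), which corrects for transcript length, was used. Summed annexin TPM was 3357 to 3534 in CV, 2573 to 2592 in ENR and 3465 to 3931 in EN, so CV and EN overlapped and ENR was lower than both. The order of levels changed at the top. In CV the order was Anxa4 (1315 ± 20.5 TPM, SD, n = 4), Anxa2 (1049 ± 48.4), Anxa13 (524 ± 18.5), Anxa1 (182 ± 14.9), Anxa7 (116 ± 0.948), Anxa6 (107 ± 2.36) and Anxa5 (83.9 ± 6.62). Anxa3 (34.3 ± 1.59) and Anxa11 (33.5 ± 1.90) came last and overlapped.

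In ENR, Anxa4 (921 ± 8.86 TPM, SD, n = 4) was followed closely by Anxa13 (878 ± 12.8) and then by Anxa2 (643 ± 17.0). Anxa7 (70.5 ± 2.02 TPM) and Anxa11 (24.5 ± 1.27) came next, then Anxa3 and Anxa5 (16.4 ± 2.37 and 15.3 ± 2.52), which overlapped, and Anxa1 and Anxa6 (7.48 ± 0.890 and 5.67 ± 0.603), which also overlapped. In EN, Anxa13 led (2046 ± 182 TPM, SD, n = 4), followed by Anxa2 (978 ± 25.7) and Anxa4 (620 ± 14.7). Below them were Anxa7 (73.4 ± 4.20 TPM), Anxa11 (24.5 ± 2.19), Anxa5 (11.4 ± 0.790), the overlapping Anxa6 and Anxa3 (7.53 ± 0.746 and 7.34 ± 0.759), and Anxa1 (2.88 ± 0.982).

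As a share of the summed TPM of the 9 genes, Anxa13 made up 15.2% ± 0.580 (SD, n = 4) in CV, 34.0% ± 0.569 in ENR and 54.2% ± 1.94 in EN. Anxa4 made up 38.2%, 35.7% and 16.5%. Anxa2 made up 30.4%, 24.9% and 26.0%. Anxa1, Anxa5 and Anxa6 held 5.27%, 2.43% and 3.10% in CV, and 0.0768%, 0.302% and 0.200% in EN. The annexin pool of EN was thus made up of Anxa13, Anxa2 and Anxa4 to a greater part than that of CV, where minor members contributed more.

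**Figure D4:**
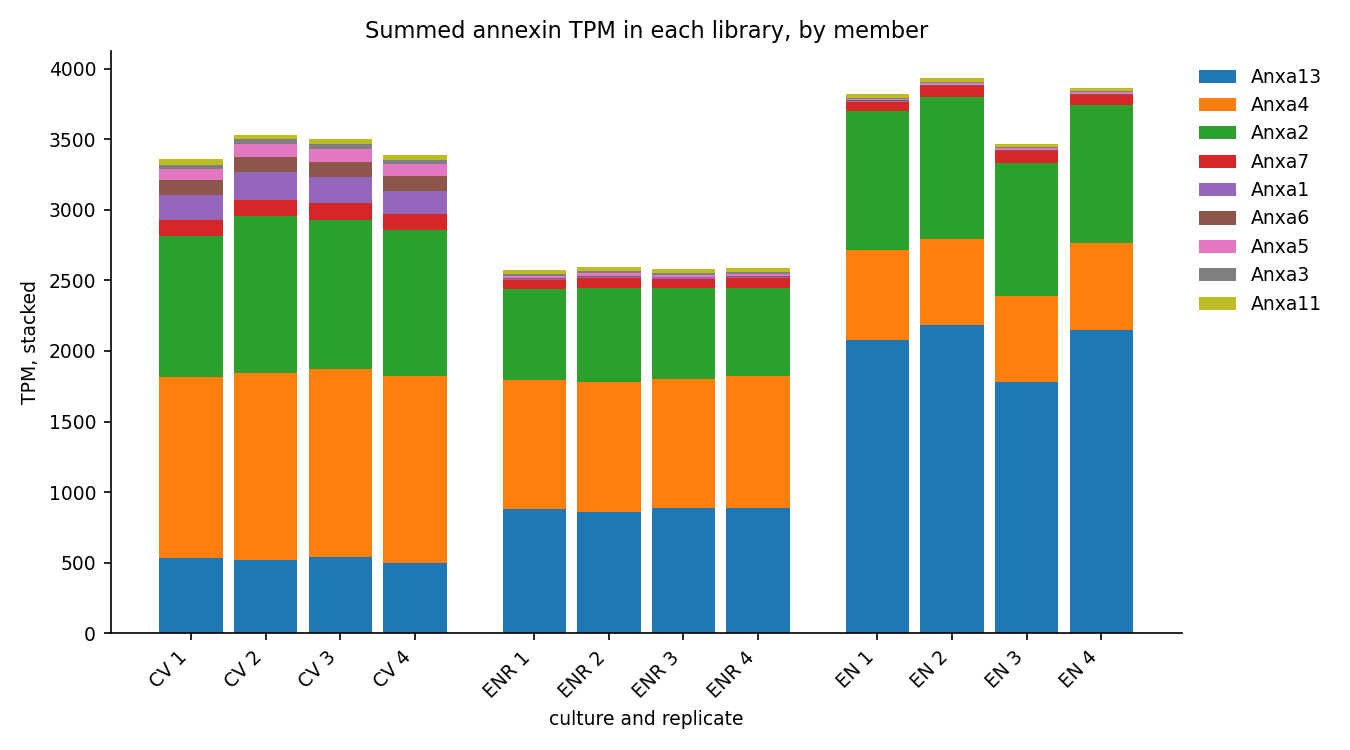
Summed annexin level in transcripts-per-million (TPM) in each of the 12 RNA libraries, stacked by member. Anxa13 widens from 15.2% of the stack in CV to 54.2% in EN while Anxa4 narrows from 38.2% to 16.5%, and the stacks of ENR, at 2573 to 2592 TPM, are the shortest.

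Annexins act with S100 proteins and other partners, of which 15 transcripts of 13 genes could be tested. Between EN and CV, 4 were higher, 8 were lower and 3 were not called, a share close to the 76.4% of all transcripts called (35.2% higher, 41.2% lower), and the median was -0.25 against -0.08. Between EN and ENR, 8 were higher and 6 lower (background 35.5% and 37.2%), and between CV and ENR 10 were higher and 2 lower (background 30.2% and 29.8%). S100a4 and Fpr1 were in the table with 0 to 1 counts per library and were not tested, and Fpr2, a receptor of Anxa1, was not in it. S100a10, the light chain of the Anxa2 complex, had 385 ± 19.5 CPM in CV, 225 ± 5.77 in ENR and 257 ± 23.0 in EN (SD, n = 4). It was lower in EN than in CV (log2 -0.58, SE 0.056, edgeR adjusted p = 9.43e-08), whereas Anxa2 itself was log2 0.22 in counts and log2 -0.20 after spike-in scaling. Both were higher in CV than in ENR (S100a10 log2 0.78).

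Plat, tissue plasminogen activator, which binds Anxa2 at the cell surface, followed the pattern of Anxa1. Its level was 121 ± 6.07 CPM in CV, 9.07 ± 1.11 in ENR and 3.05 ± 0.955 in EN (SD, n = 4), a log2 difference of -5.33 between EN and CV (edgeR adjusted p = 2.99e-15). Lgals3, a galectin recruited to damaged lysosomes, had 121 ± 6.46, 20.4 ± 2.20 and 10.5 ± 0.911 CPM (log2 -3.51 for EN versus CV). S100a6, a partner of Anxa11, was lower in EN than in CV by log2 -1.25. S100a11, a partner of Anxa1, had at most 37 counts in a library and was lower in EN than in CV by log2 -2.09 (edgeR adjusted p = 7.13e-05).

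The 4 partner transcripts higher in EN than in CV belonged to Pdcd6, Pdcd6ip, Tsg101 and Ahnak. Pdcd6, a calcium sensor that binds Anxa7 and Anxa11, had 189 ± 4.95 CPM in CV, 142 ± 3.67 in ENR and 316 ± 18.6 in EN (SD, n = 4; log2 0.74 for EN versus CV, edgeR adjusted p = 2.17e-10). Pdcd6ip and Tsg101, which act with the ESCRT machinery, differed by log2 0.50 and 0.43, and the Ahnak transcript NM_009643.2 by log2 0.19. Sri, sorcin, a partner of Anxa7, was not called between EN and CV (log2 0.04, edgeR adjusted p = 0.312) and was highest in ENR, at 319 ± 3.50 CPM (SD, n = 4). Ctsb (log2 -0.16), Plin2 (log2 -0.25) and the Pla2g4a transcript NM_008869.4 (log2 -1.77) were lower in EN than in CV.

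Of 14 tested transcripts of other membrane-repair genes, 10 were higher and 2 lower in EN than in CV, against 35.2% higher and 41.2% lower over all transcripts, with a median of 0.40 against -0.08. The lowest adjusted p belonged to Fer1l6, a ferlin (log2 5.66), Ptrf, a caveolar coat protein (log2 -6.70), Chmp4c, an ESCRT-III subunit (log2 1.17), and Vps4a, the ATPase of that complex (log2 0.57). Of 11 transcripts in a list of other calcium-dependent membrane binders, 3 were higher and 7 lower (median -0.34), with Esyt1 (log2 -1.62), Sytl2 (log2 2.49), Rasal1 (log2 -4.44) and Cpne2 (log2 -5.00) having the lowest adjusted p. That list also held Pkp2, a desmosomal protein, which was not called.

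Likeness to each annexin was measured as the Euclidean distance between log2 CPM profiles centred on their mean over the 12 libraries, and the nearest 2 transcripts of other genes are named. Anxa13 was nearest to Ccl25, a chemokine of the small intestine, at a distance of 0.26, and to Pyroxd2 at 0.368. Anxa1 was nearest to Camsap2 (1.15) and to Plat (1.30), and Anxa5 to Lgmn (0.509) and Mfge8 (0.689), a secreted protein that like Anxa5 binds phosphatidylserine. Anxa2 had Tm7sf2 (0.132) and Ept1 (0.192), and Anxa3 had Btc (0.333) and Pebp1 (0.433). Anxa4 had Lgr4 (0.155), a receptor of R-Spondin, and Actg1 (0.175). Anxa7 had Tmed7 (0.147) and Gnai3 (0.161), and Anxa11 had Ndufv1 (0.208) and 2410015M20Rik (0.215). The profiles of the Anxa6 transcripts carry the uneven division of reads described above, and no neighbours are given for them. All profiles share the same libraries, and the distances are a description.

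Chromatin was described with a score per region, the read count that the authors normalized between libraries and rounded. ATAC-seq reports accessible DNA, H3K27ac active promoters and enhancers, H3K4me3 active promoters and H3K27me3 Polycomb repression. Of the 71 annexin regions, 12 lay at a start, 32 in introns, 2 in exons, 21 upstream and 4 downstream. Between EN and CV, 5 of 70 tested annexin regions were more accessible and 19 less accessible at an adjusted p of 0.05 (limma on log2(score + 1) with Benjamini-Hochberg adjustment over all regions). The background was 35.2% of 94166 regions (19.6% higher, 15.6% lower), and the median difference was -0.31 for annexin regions against 0.05 for all. H3K27ac was called at 2 regions higher and 4 lower of 71 (background 7.03%, with 5.07% higher and 1.96% lower), and H3K4me3 at 2 higher and 3 lower of 65 (background 4.9%, with 2.75% higher and 2.15% lower). H3K27me3 was called at 0 of 71 (limma; background 0.528%), with 6 of 71 at an unadjusted p under 0.05 against 9.08% of all regions. The H3K4me3 calls in the higher direction, near Anxa1 and Anxa4, were scores of 0 in every CV library and 1 in every EN library, and nothing is read from them. Single-digit scores carry little precision.

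At Anxa6, H3K27ac and accessibility were lower in EN than in CV at several places. H3K27me3 was called at none of its 7 regions (background 0.528%), with log2 0.96 at the start (limma adjusted p = 0.751). The start region (chr11:54845982-54847204) had ATAC scores of 32, 24, 25 and 16 in CV, 18, 18, 13 and 21 in ENR and 8, 19, 10 and 13 in EN (EN minus CV log2 -0.93, SE 0.256, limma adjusted p = 0.00813). Its H3K27ac scores were 32, 23 and 50 in CV, 10, 16 and 5 in ENR, and 3, 6 and 3 in EN (log2 -2.83, SE 0.558, limma adjusted p = 0.00105). Accessibility overlapped between the cultures at this start, while H3K27ac of CV lay wholly above that of EN and of ENR. H3K4me3 of 55, 56 and 54 in CV and 41, 14 and 17 in EN did not pass (log2 -1.32, limma adjusted p = 0.1), although it passed without EN replicate 1 (log2 -1.77).

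The Anxa6 intron region whose sequence is shown (chr11:54836593-54836855) had ATAC scores of 14, 17, 14 and 20 in CV, 6, 14, 7 and 9 in ENR and 1, 3, 4 and 1 in EN (log2 -2.51, SE 0.330, limma adjusted p = 1.09e-05). Its CV and EN scores did not overlap, with ENR between or within the CV range. H3K27ac there was 17, 9 and 10 in CV and 3, 1 and 2 in EN (log2 -2.12, limma adjusted p = 0.0267), a call lost without any one of CV replicate 3, CV replicate 5 or an EN library (log2 -1.86 to -2.36). A further intron region (chr11:54841078-54841410), chosen after its values were seen, fell from ATAC scores of 9, 16, 14 and 15 to 1, 0, 4 and 1 (log2 -2.75, SE 0.381, limma adjusted p = 1.99e-05).

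Anxa1 also had 4 regions of lower and none of higher accessibility, among 9 tested (over all regions 15.6% were lower and 19.6% higher). At its start (chr19:20465133-20465285) ATAC scores were 5, 4, 7 and 7 in CV, 2, 3, 3 and 2 in ENR and 2, 4, 1 and 1 in EN (log2 -1.25, SE 0.342, limma adjusted p = 0.00778). The region at -2860 bp (chr19:20468202-20468386), whose window holds the 2 AP-1 matches, had scores of 7, 9, 8 and 11 in CV, 4, 3, 4 and 3 in ENR and 5, 2, 1 and 4 in EN (log2 -1.40, limma adjusted p = 0.00287). In both regions ENR lay with EN and below CV, apart from an overlap of 1 EN library with CV at the start. H3K4me3 just inside the gene (chr19:20464193-20464798) was 9, 22 and 18 in CV, 0, 1 and 1 in ENR and 1, 3 and 1 in EN (log2 -2.70, SE 0.457, limma adjusted p = 0.0151). That call was lost without CV replicate 3 (log2 -2.45) or CV replicate 4 (log2 -2.59).

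At Anxa5, accessibility of the start did not follow the RNA. Its start region (chr3:36373816-36375434), which also covers the start of 1810062G17Rik, had ATAC scores of 234, 204, 206 and 181 in CV, 182, 160, 189 and 154 in ENR and 220, 175, 204 and 163 in EN. These overlapped (log2 -0.12, limma adjusted p = 0.446), although after quantile normalization the difference was log2 -0.41 and passed. H3K4me3 at the same place was 46, 47 and 60 in CV, 41, 41 and 37 in ENR and 11, 20 and 21 in EN (log2 -1.54, SE 0.244, limma adjusted p = 0.0106). H3K4me3 of ENR, in which Anxa5 RNA was near the EN level, stayed closer to CV. H3K27me3 scores were 13, 5 and 5 in CV, 11, 5 and 7 in ENR and 23, 32 and 32 in EN, without overlap, but did not pass (log2 1.90, SE 0.691, limma adjusted p = 0.265). The intron region whose sequence is shown (chr3:36366617-36366857) fell in accessibility, from 15, 19, 16 and 10 in CV and 12, 10, 8 and 11 in ENR to 1, 7, 5 and 6 in EN (log2 -1.62, SE 0.353, limma adjusted p = 0.00147).

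The starts of Anxa7 and Anxa11 differed in accessibility and H3K27ac between EN and CV. The Anxa7 start (chr14:21298050-21299509) had H3K27ac scores of 26, 66 and 48 in CV, 148, 148 and 142 in ENR and 190, 189 and 178 in EN (log2 2.07, SE 0.271, limma adjusted p = 3.11e-06). Its ATAC scores went the other way, with 91, 86, 88 and 111 in CV, 75, 86, 78 and 94 in ENR and 60, 49, 47 and 68 in EN (log2 -0.75, SE 0.140, limma adjusted p = 3.28e-04). CV, the culture with the highest Anxa7 RNA in CPM, thus had the lowest H3K27ac at that start. Its accessibility was also the highest on average, with scores that overlapped those of ENR. In mRNA copies Anxa7 was highest in EN, at 93.9 to 120 against 64.2 to 90.8 in CV. With replicate number as a block the H3K27ac call was lost (log2 2.07, limma adjusted p = 0.163). The H3K27ac libraries did not carry the same numbers in each culture, so the block left few libraries to estimate the spread. CV medium contains valproic acid, a deacetylase inhibitor, and its part in H3K27ac values cannot be told apart from that of the other changes of medium.

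The Anxa11 start (chr14:26661496-26663691) was more accessible in EN, with ATAC scores of 37, 45, 51 and 42 in CV, 62, 71, 56 and 61 in ENR and 64, 91, 59 and 85 in EN (log2 0.75, SE 0.153, limma adjusted p = 8.99e-04). H3K27ac there was 90, 170 and 121 in CV and 221, 190 and 215 in EN (log2 0.76, limma adjusted p = 0.0281), and the difference was log2 0.08 after quantile normalization. The call was also lost when any of 6 single libraries was left out, at log2 0.53 without CV replicate 3 and at log2 0.71 to 0.82 without CV replicate 5, ENR replicate 4 or EN replicates 2, 3 or 4. Upstream of Anxa11, regions at -15714 bp and -2199 bp closed. The former (chr14:26645742-26646169) had 20, 21, 10 and 19 in CV, 30, 27, 24 and 29 in ENR and 3, 2, 2 and 6 in EN (log2 -2.16, SE 0.284, limma adjusted p = 1.08e-05). The latter, chosen after its values were seen, had 7, 9, 12 and 13 in CV but 2, 2, 1 and 1 in ENR (log2 -2.31 for EN minus CV, limma adjusted p = 1.62e-05), so these upstream regions parted in ENR. With replicate number as a block, an intron region of Anxa11 starting at position 26664117 was called in addition (adjusted p = 0.0401, against 0.0772 without the block).

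The starts of Anxa2, Anxa3 and Anxa4 were not called in any of the 4 datasets. Calls over all regions were 35.2% for ATAC and 7.03% or less for each mark. At the Anxa2 start (chr9:69301268-69302483) ATAC scores were 69, 73, 84 and 58 in CV and 68, 87, 73 and 93 in EN (log2 0.18, limma adjusted p = 0.387). Within the gene, the intron region whose sequence is shown (chr9:69315177-69315773) was less accessible in EN, with 56, 76, 62 and 75 in CV, 56, 50, 57 and 61 in ENR and 30, 36, 26 and 57 in EN (log2 -0.89, SE 0.191, limma adjusted p = 0.00132). An intron region nearer the start (69303197 to 69303416), chosen after its values were seen, was more accessible, from 9, 19, 12 and 11 in CV to 36, 27, 21 and 31 in EN (log2 1.14, limma adjusted p = 0.00153). Anxa2 thus held regions that opened beside regions that closed.

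The single Anxa3 region, at its start (chr5:97222290-97223310), had ATAC scores of 24, 22, 21 and 17 in CV and 13, 22, 20 and 16 in EN (log2 -0.25, limma adjusted p = 0.361). Its H3K4me3 of 27, 27 and 26 in CV and 4, 8 and 18 in EN did not overlap but did not pass (log2 -1.54, limma adjusted p = 0.0908), and it passed without EN replicate 4 (log2 -2.04). Anxa4, with 18 regions the largest set, had 1 region of higher and 2 of lower accessibility. Its lowest p fell on an intron region of very low scores (86727320 to 86727416), with 4, 4, 1 and 3 in CV and 0, 0, 1 and 0 in EN (log2 -1.66, limma adjusted p = 0.00239).

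Anxa13, whose RNA rose most in EN, had no called region in any dataset among its 6. Over all regions, calls were made at 35.2% for ATAC, 7.03% for H3K27ac, 4.9% for H3K4me3 and 0.528% for H3K27me3. With so few regions, the absence of calls is not read as a trait of Anxa13. The region nearest its start (chr15:58198823-58199207) had ATAC scores of 8, 15, 13 and 17 in CV, 11, 10, 6 and 11 in ENR and 18, 20, 11 and 22 in EN (log2 0.40, SE 0.270, limma adjusted p = 0.277). H3K27ac at the same place was 25, 19 and 13 in CV and 12, 11 and 12 in EN (log2 -0.61, SE 0.588, limma adjusted p = 0.618). The region with the lowest p (chr15:58220470-58221016), at -23061 bp, had ATAC scores of 18, 18, 14 and 17 in CV and 23, 16, 24 and 25 in EN (log2 0.36, SE 0.187, limma adjusted p = 0.15). Its H3K27ac scores, 24, 20 and 28 in CV, 43, 27 and 39 in ENR and 53, 40 and 55 in EN, did not overlap between CV and EN but did not pass either (log2 1.01, SE 0.383, limma adjusted p = 0.113).

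**Figure D5:**
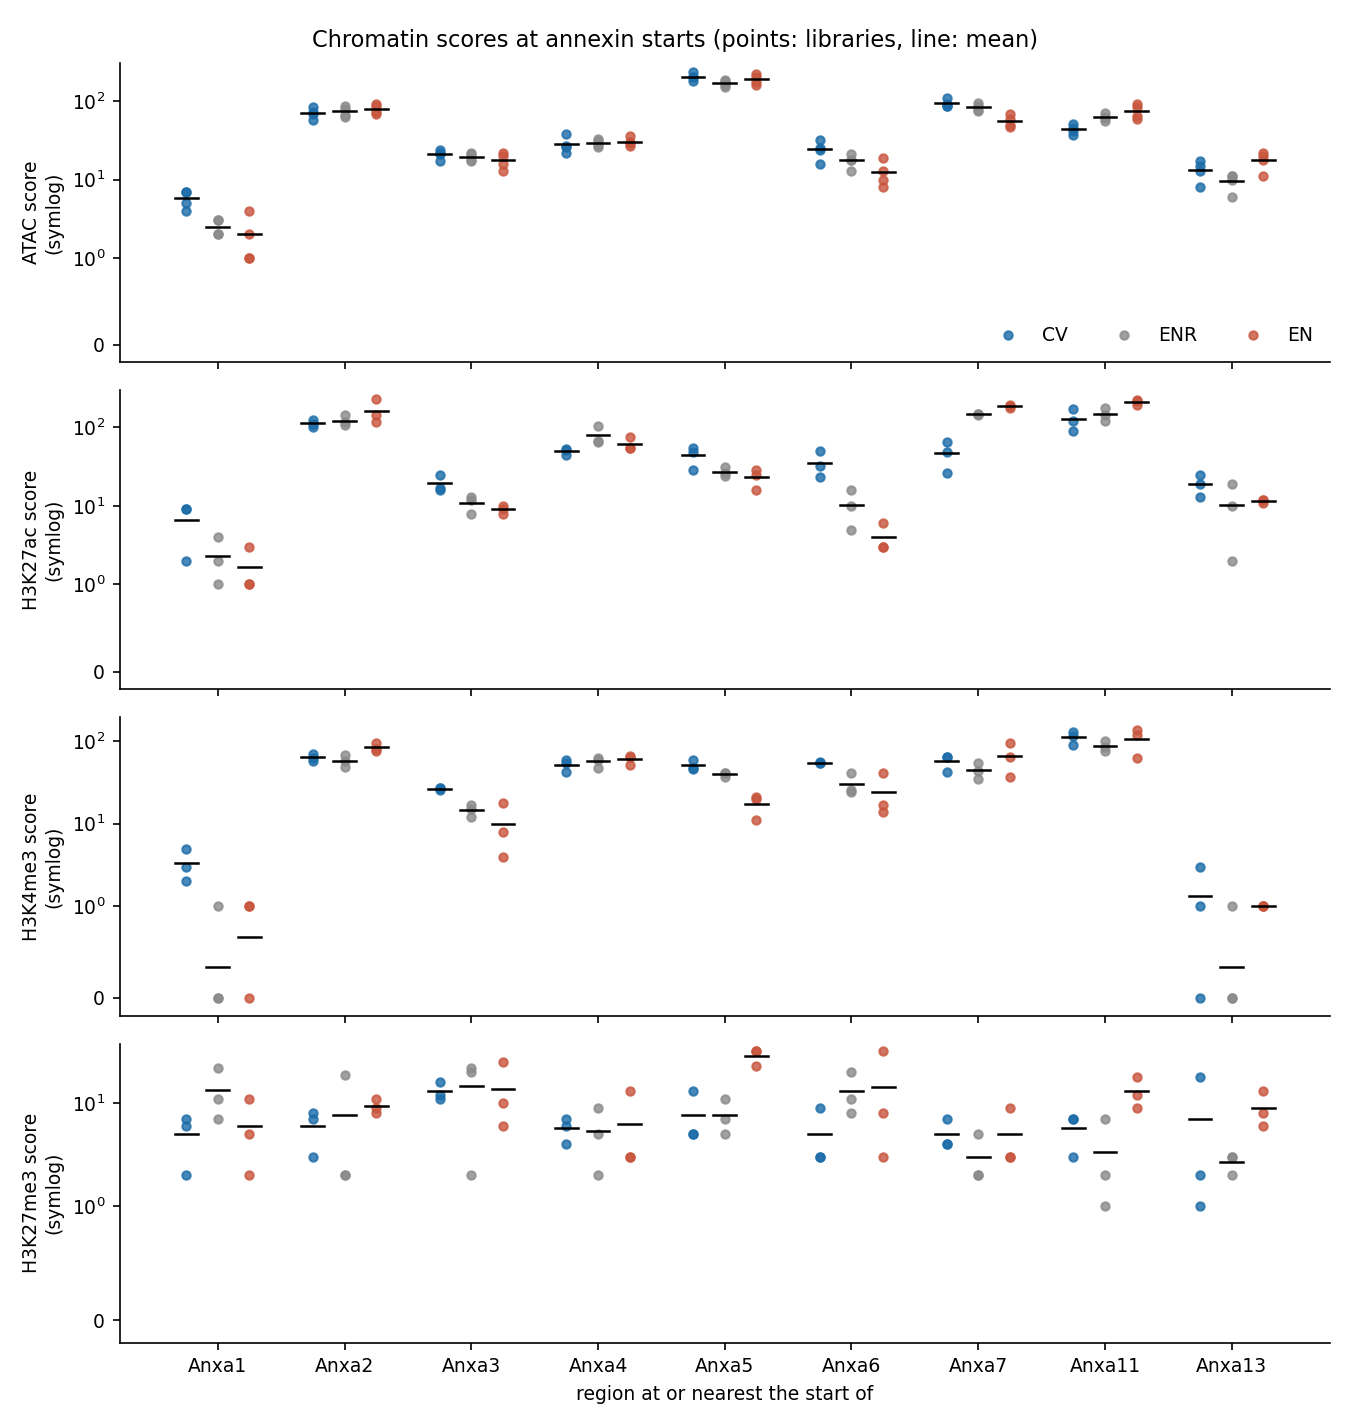
Scores of ATAC, H3K27ac, H3K4me3 and H3K27me3 at the region at each annexin start (for Anxa13 the nearest region upstream, at -1333 bp), on a symmetric log axis that is linear below 1; points are libraries (4 per culture for ATAC, 3 for each mark) and lines means. H3K27ac at Anxa6 drops from 23 to 50 in CV to 3 to 6 in EN, H3K27ac at Anxa7 climbs from 26 to 66 in CV to 178 to 190 in EN, and the Anxa5 ATAC scores overlap in all 3 cultures.

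Reads of Hnf4g, a factor of enterocyte genes, were counted in the same regions in 1 library per culture, with no replicate and therefore no test. The libraries held 84340 (CV), 352600 (ENR) and 1816497 (EN) reads within regions, so that 3 reads, the floor set by counting error, were 35.6, 8.51 and 1.65 reads-per-million (RPM). Over the 71 annexin regions together there were 510 RPM in CV (exact Poisson 95% interval 369 to 687), 601 in ENR (523 to 688) and 513 in EN (481 to 547). These intervals, which cover counting error only, overlap. The CV total rested on 43 reads and the EN total on 932. RPM is a share of the reads within regions of the same library, so a change common to all regions cancels out of it. The overlap therefore does not show equal binding at annexins in the cultures, and a difference in absolute binding was not tested. The paper reports almost no Hnf4g binding in CV and many bound sites in EN. In EN the starts of Anxa2 and Anxa11 held the most reads of the annexin regions, 139 each (76.5 RPM, interval 64.3 to 90.4). This was above the 95th percentile of 88 reads per region. Reads were not divided by region width, and these starts were wider than most annexin regions. The percentile therefore does not compare binding per base. In ENR the Anxa11 start had 5 reads (14.2 RPM, interval 4.60 to 33.1) and the Anxa2 start 17 reads (48.2 RPM, interval 28.1 to 77.2). In CV the counts were 0 and 2, with upper limits of 43.7 and 85.7 RPM. The nearest region to the Anxa13 start had 20 reads in EN (11.01 RPM, interval 6.73 to 17.0), 2 in ENR (5.67 RPM, interval 0.687 to 20.5) and 1 in CV (11.9 RPM, interval 0.300 to 66.1), levels whose intervals overlap. An Anxa11 intron region (26687412 to 26687999), chosen after its values were seen, had 41 reads in ENR (116 RPM, interval 83.4 to 158) and 66 reads in EN (36.3 RPM, interval 28.1 to 46.2), and the spread between libraries is not known.

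Motif letters were searched on both strands in the 200-base windows of all regions. CAAAGTCCA or CAAAGTTCA, letters of the Hnf4 motif, was in 3.16% of 94335 windows and in 0 of the 71 annexin windows. CTTTGAA or CTTTGAT, letters of the TCF motif, was in 9.12% of all windows and in 2 annexin windows, and CAAAG, which is contained in both motifs, was in 50.5% and in 36. The AP-1 letters TGACTCA, read as TGAGTCA on the other strand, were searched after the sequences above had been seen. They were in 11.2% of all windows and in 15 of 71 annexin windows, of which 6 were among the 19 regions less accessible in EN and 2 among the 5 more accessible. Those 6 include the Anxa1 and Anxa5 windows shown above, which were picked by their p for accessibility. The share among all regions less accessible in EN was not counted, so the 6 of 19 is not read as a trait of annexins. A match is a description of the letters and not of binding.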

How the data were processed

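The RNA table that the authors deposited holds expected counts of each transcript from kallisto (0.43.0 in the processing notes), run against an index limited to transcripts whose proteins had been quantified, beside TPM values and mRNA copy numbers that the authors scaled to spike-ins. The ATAC-seq and histone table that the authors deposited holds, for every peak region found in any library, a score normalized between libraries and rounded, after alignment to mm9 with BWA and peak calling with MACS2 2.0. The H3K27me3 scores cover regions extended by the authors, and how scores were normalized is not given in the sources used here. The Hnf4g table that the authors deposited holds raw read counts in those regions. Of the histone libraries in the list of samples, 10 had no column and were not analysed here, nor was RNA of Hnf4g knockout organoids.

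Expected counts were rounded. Transcripts above 0 in at least 4 of 12 libraries (9288; 92 spike-ins left out) were tested with edgeR 4.0.16 in R 4.3.3 (TMM, quasi-likelihood test, 1 fit over 3 cultures, common dispersion 0.00475) at an adjusted p of 0.01, with DESeq2 1.42.0 as an alternative. Regions above 0 in at least 3 libraries were tested with limma 3.58.1 on log2(score + 1), letting the spread depend on the mean, at an adjusted p of 0.05. The scripts were tested on simulated data. Starts came from the GENCODE annotation of mm9 (promoter: within 500 bp). Hnf4g reads have exact Poisson 95% intervals, which like the floor of 3 counts cover counting error only. Figures and sequences used Python 3.11.15 with pandas 2.3.3, scipy 1.17.1 and matplotlib 3.10.9.

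Named were the 9 members, their start regions and the region with the lowest ATAC p per member, the annexin partners, up to 4 examples of each related list by adjusted p, and the 2 nearest profiles (not given for Anxa6). Members and lists were chosen with earlier results of these data known. Replicate numbers come from the sample titles. ATAC libraries of the same number deviated together from their culture means in all 12 pairs (correlation 0.118 to 0.582, mean 0.277). The 36 pairs of different numbers ranged from -0.607 to 0.323 (mean -0.0913). These ranges overlap, so it is not settled that the numbers pair the libraries. The p-values given come from fits without the block unless stated, and a fit with the replicate number as a block was run beside each test.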

Additional observations from a re-analysis of the deposited data

Results flagged for a closer look

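Of 87 groups of 4 libraries, 4 held a library whose gap to the nearest other, divided by the range of the group, exceeded the 95% critical value of Dixon's test for groups of that size. Chance alone flags about 1 in 20 groups. Anxa13 in ENR had 1 library at 744 CPM, below the others at 766, 767 and 768 CPM. Anxa5 in EN had 1 library at 15.4 CPM, above the others at 13.5, 13.5 and 13.7 CPM. The summed Anxa6 level in ENR had 1 library at 11.5 CPM, above the others at 9.19, 9.49 and 9.57 CPM. In an Anxa4 intron region starting at position 86727320 of chromosome 6, 1 EN library had an ATAC score of 1 and the others 0, which is the smallest step the scores can take.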

How the results depend on the processing

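Of 140 counts of annexin calls under the alternatives, 120 stayed within 1.5 times the reported count. So did all 3 RNA counts with the replicate block. These were 9 for EN versus CV (background 76%), 6 for EN versus ENR (72.2%) and 10 for CV versus ENR (58.8%). With the block there were 25 ATAC calls, 0 H3K27ac calls and 3 H3K4me3 calls. Those 3 were the scores of 0 and 1 near Anxa1 and Anxa4, and an Anxa11 region starting at 26659349 (limma adjusted p = 0.0243). The H3K4me3 calls at Anxa1 (20464193 to 20464798, limma adjusted p = 0.142), the Anxa5 start (limma adjusted p = 0.116) and Anxa6 (limma adjusted p = 0.149) were lost. The libraries of a histone mark did not carry the same replicate numbers in each culture. The block therefore left few libraries to estimate the spread, and calls lost with it cannot decide whether pairing matters. With the block, the H3K27ac difference was log2 -2.62 at the Anxa6 start and 2.07 at the Anxa7 start. Same-numbered libraries correlated at -0.07 to 0.10 for RNA, -0.08 to 0.11 for H3K27ac, -0.42 to 0.39 for H3K4me3 and -0.05 to 0.02 for H3K27me3. The numbers are therefore not shown to pair those libraries. For CV versus ENR, 6 transcripts were called with spike-in scaling (background 28.4%) and 6 in copies (19.5%). A filter at the median count left 6 transcripts, of which 6 were called (background 70.2%), and 5 for EN versus CV (83.9%). At 2-fold or more, 4 were called (background 12.9%), and 3 for EN versus ENR (30.1%). The background thus differed widely between these settings. Linking within 10 kb, which leaves fewer regions, gave 14 ATAC and 3 H3K4me3 calls. H3K27ac had 3 calls without the trend, at an adjusted p of 0.01 and after quantile normalization. H3K4me3 had 2 at an adjusted p of 0.01, which were the scores of 0 and 1 near Anxa1 and Anxa4. Leaving out 1 library gave 9 to 9, 6 to 7 and 10 to 10 RNA calls, 22 to 25 for ATAC, 3 to 5 for H3K27ac (3 without each EN library), 3 to 9 for H3K4me3 (3 without CV replicate 3 or CV replicate 4, 9 without EN replicate 1) and 0 to 0 for H3K27me3.

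Of 588 fold changes of members, 21 changed sign, 9 of them with a call before or after; the cause was not tested beyond the shift of the median given above. The other 12, called neither before nor after, belonged to Anxa11 and to single Anxa6 transcripts, among them Anxa11 for EN versus CV in copies (0.67) and for EN versus ENR with spike-ins (-0.34). Anxa2 for EN versus CV became -0.20 with spike-ins and -0.10 in TPM with a pseudocount of 1 and of 0.1, and Anxa7 for EN versus ENR became -0.31 with spike-ins. In copies, Anxa4 and Anxa7 for EN versus CV became 0.071 and 0.47, and Anxa3, Anxa4 and Anxa5 for EN versus ENR became 0.015, 0.42 and 0.83. The Anxa6 transcript NM_001110211.1 for EN versus CV was not called with DESeq2 (adjusted p = 0.0198). Of 1265 region differences, 29 changed sign, none of them called before or after, while 72 lost and 11 gained a call. An analysis of all labelled histone libraries was not run, since 10 had no column.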

Other observations

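The table also listed Anxa10, a gene outside the set described above, with 85 to 138 counts per library. It was not called between EN and CV (log2 0.02, edgeR adjusted p = 0.944), between EN and ENR (log2 0.13, edgeR adjusted p = 0.241) or between CV and ENR (log2 0.12, edgeR adjusted p = 0.307).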
